A study of Mus musculus with 10 samples.

Results

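The 10 genes described here encode RNA-binding proteins that regulate splicing during the fetal-to-adult transition of heart muscle: Rbm20, Rbm24, Rbfox1, Rbfox2, Mbnl1, Mbnl2, Celf1, Celf2, Ptbp1 and Qk. They were chosen by symbol, and all 10 were found among the 23337 genes of the authors' deposited table. Their messenger RNA was measured by RNA sequencing in cardiomyocytes, the contractile heart cells, of wild-type mice that carried an adeno-associated virus of serotype AAV9. In the dnMKL1 group (5 libraries) the virus carried dnMKL1 with GFP, and in the GFP group (5 libraries) it carried GFP alone. Both viruses used the cTNT promoter, the cardiac troponin T promoter, which restricts expression to cardiomyocytes. dnMKL1 is a dominant-negative form of MKL1 (MRTF-A), a coactivator of serum response factor (SRF). The dose was 5e+08 viral genomes per gram for both groups, given on postnatal day 1, and cells were isolated by collagenase perfusion and sorted by fluorescence on postnatal day 14.

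The comparison asks how interference with MKL1 changes transcript levels in cardiomyocytes. The authors' deposited table holds a mean over all libraries (the base mean, in normalized counts), a log2 fold change with its standard error (SE) and Wald p-values, so group values are given here as means and not library by library. The base mean and the fold change together fix the mean of each group, called here the implied mean. Positive fold changes mean higher levels in dnMKL1, a direction read from Mkl1, whose reads include those of the vector and which had a deposited log2 fold change of 9.80 (SE 0.15). Estimated library totals ran from 8803028 to 17123577 counts in the GFP group and from 8835136 to 17228616 in the dnMKL1 group. The 8 cardiomyocyte markers were abundant, with base means from 10438 (Ryr2) to 594986 (Myh6) in the authors' deposited table.

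After birth, cardiomyocytes replace fetal protein isoforms by adult ones through a switch in alternative splicing of many sarcomeric, calcium-handling and trafficking transcripts. MBNL proteins gain activity during this switch and CELF proteins lose it, and these families often act in opposite directions on the same exons. RBFOX proteins bind near regulated exons, and the position of binding decides whether an exon is included or skipped. RBM20 represses exons of titin, and RBM24, quaking (the product of Qk) and PTBP1 set the inclusion of further muscle exons. Counts per gene add all isoforms of a gene together, so the values below are levels of the regulators' transcripts, and exon inclusion itself was not measured.

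Each gene was placed on GRCm38 with the GENCODE M21 annotation. Promoter windows, the 250 bases before an annotated start, came from RefSeq (GRCm38.p6) and were found for 8 of the 10 genes, with 14 windows in all. The windows of Mbnl2 and Rbfox1, genes that were lower in dnMKL1 libraries with the authors' scaling of the counts, are shown. The fall of Mbnl2 rests on that scaling, as described below. Qk fell too, and its window is described after the sequences. Rbfox1 has a far upstream start and an inner one in RefSeq. The upstream start lies before the gene's start in GENCODE and was not found in its GENCODE transcripts, whereas the inner one was. Capitals mark every CG dinucleotide, and each sequence reads 5′ to 3′ on the gene's strand.
Mbnl2, chr14:120275419-120275668, plus strand: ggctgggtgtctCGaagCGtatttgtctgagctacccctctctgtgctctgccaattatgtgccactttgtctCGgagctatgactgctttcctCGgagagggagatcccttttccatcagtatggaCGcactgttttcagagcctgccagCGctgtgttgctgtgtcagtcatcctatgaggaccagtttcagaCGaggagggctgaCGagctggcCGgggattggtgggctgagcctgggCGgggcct
Rbfox1, upstream start, chr16:5884543-5884792, plus strand: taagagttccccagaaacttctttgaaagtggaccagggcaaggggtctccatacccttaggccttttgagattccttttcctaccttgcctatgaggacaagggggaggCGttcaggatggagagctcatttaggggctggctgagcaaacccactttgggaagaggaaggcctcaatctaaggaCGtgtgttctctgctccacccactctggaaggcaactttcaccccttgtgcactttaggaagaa
Rbfox1, inner start, chr16:7069585-7069834, plus strand: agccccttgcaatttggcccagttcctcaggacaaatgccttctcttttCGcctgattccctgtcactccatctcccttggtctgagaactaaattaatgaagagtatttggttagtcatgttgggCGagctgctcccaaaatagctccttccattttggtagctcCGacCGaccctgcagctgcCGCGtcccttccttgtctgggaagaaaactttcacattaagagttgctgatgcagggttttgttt

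The Mbnl2 window held 10 CG dinucleotides, the inner Rbfox1 window 6 and the upstream Rbfox1 window 2, against a median of 6 over 32851 RefSeq windows. The window of Qk, the other gene that fell, had 52 CG dinucleotides and a GC content of 84.8%, against a median of 52.4% over all windows. It lies within an annotated exon in GENCODE and is not printed. The CArG box, the site that SRF binds, was searched on both strands and found in 0 of 14 windows and in 1.47% of the 32851 windows. The MEF2 box was likewise found in 0 of 14 and in 2.92% of all windows. The MCAT motif CATTCC, bound by TEAD factors, was found in 1 of 14, a Celf2 window, and in 12.6% of all windows. With shares as low as 1.47% and 2.92%, 14 windows cannot show a lack of the CArG or the MEF2 box. The 14 are also not all separate promoters, because some Celf2 windows overlap each other. A Celf2 window, the Ptbp1 window and the Qk window lie within exons, counted for any gene on either strand. The Ptbp1 window lies almost wholly before the start of Ptbp1 in GENCODE, so its exon bases are mostly those of other genes. These are matches of letters in a short window and say nothing about binding elsewhere.

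Of the 10 regulators, 3 were lower in dnMKL1 libraries (Qk, Rbfox1 and Mbnl2), 0 were higher and 7 did not pass the threshold, a Benjamini-Hochberg adjusted Wald p under 0.05 in the authors' deposited table. At an unadjusted p under 0.05 there were 4, with Celf2 as the additional gene. The share of all genes at that unadjusted threshold was not computed, here or for the lists below. All 10 had an adjusted p. As background, 34.1% of all 14056 genes with an adjusted p passed (16.6% higher and 17.4% lower), and of the 6546 genes within the members' range of base means 44.3% passed (17.9% higher and 26.4% lower). The members' share of 30% lay near the first of these and below the second. The median log2 fold change of the 10 genes was -0.11, against 0.02 over all genes with an adjusted p and -0.04 over genes of that range of base means. Values ran from -0.69 to 0.33, with 4 positive and 6 negative.

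The split depended on scaling. The implied means of all genes summed to 13330302 normalized counts in GFP and 10915829 in dnMKL1. Setting both groups to the same total raised every log2 fold change by 0.29, including the median of all genes. Under that total-count scaling 5 regulators were higher (Rbm20, Mbnl1, Celf1, Celf2 and Ptbp1) and 2 lower (Qk and Rbfox1), where 47.0% of all genes passed, 40.4% higher and 6.60% lower. Qk and Rbfox1 thus kept their direction and passed under both scalings, and Mbnl2 did not. In bulk samples fewer cells of a type and less RNA per cell cannot be told apart, and the values below are relative to the authors' scaling unless another is named.

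**Figure D1:**
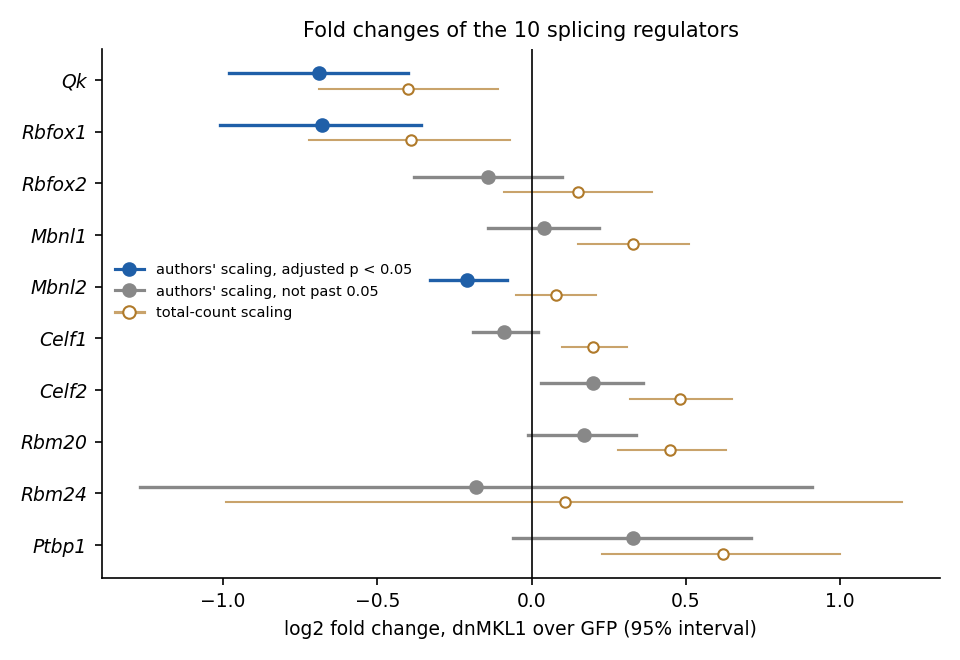
Log2 fold change (dnMKL1 over GFP, x axis) of each regulator with its 95% interval from the deposited SE, under the authors' scaling (filled points, blue where the adjusted p is under 0.05) and under total-count scaling (open points). Qk and Rbfox1 lie below 0 under both scalings, whereas Mbnl2 moves from -0.21 to 0.08, and the interval of Rbm24 spans from -1.27 to 0.91.

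Qk and Rbfox1 showed the most negative changes of the 10, of nearly the same size. Qk encodes quaking, a STAR-family RNA-binding protein known to regulate splicing and RNA stability in muscle, and lies on the minus strand of chromosome 17 (10202601 to 10319854). Its implied mean was 1644 normalized counts in GFP and 1020 in dnMKL1, so that 62.0% of the GFP level remained. The log2 fold change was -0.69 (SE 0.15, adjusted Wald p = 2.4e-05 in the authors' deposited table), with a 95% interval from -0.98 to -0.40. Under total-count scaling it was -0.40 (adjusted p = 0.0161, recomputed from the deposited SE by the Wald test).

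Rbfox1 and Rbfox2 encode splicing factors that recognise the same RNA motif. Rbfox1 spans 1526172 bases of chromosome 16 (5885355 to 7411526) and is the form that is restricted to muscle and neurons. Its implied mean was 328 normalized counts in GFP and 204 in dnMKL1, or 62.3% of the GFP level. For Rbfox1 the authors' deposited table gave a log2 fold change of -0.68 (SE 0.17, adjusted Wald p = 2.6e-04), with a 95% interval from -1.01 to -0.36. Total-count scaling left it at -0.39 (adjusted p = 0.0386 by the Wald test). Rbfox2, the more widely expressed member, on the minus strand of chromosome 15 (77078990 to 77307004), had implied means of 1184 and 1076. Its log2 fold change was -0.14 (SE 0.12, adjusted Wald p = 0.437 in the authors' deposited table), and its 95% interval of -0.38 to 0.10 shares only its lower edge with that of Rbfox1. The ratio of Rbfox1 to Rbfox2 implied means was 0.28 in GFP and 0.19 in dnMKL1. Whether the members of a pair differ in their response was not tested, because their values come from the same libraries and the table gives no covariance.

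Mbnl1 and Mbnl2 encode muscleblind-like proteins, whose loss from the nucleus by sequestration on expanded repeats underlies the missplicing of myotonic dystrophy. Mbnl2, on the plus strand of chromosome 14 (120275669 to 120431697), had implied means of 4222 normalized counts in GFP and 3662 in dnMKL1, and fell to 86.7% of the GFP level. Its log2 fold change was -0.21 (SE 0.07, adjusted Wald p = 0.00705 in the authors' deposited table), with a 95% interval from -0.33 to -0.08. The direction reversed to 0.08 under total-count scaling (adjusted p = 0.307 by the Wald test), so this small fall rests on the authors' scaling. Mbnl1, on chromosome 3 (60472830 to 60629750), had implied means of 2818 and 2899. Its log2 fold change of 0.04 (SE 0.09, adjusted Wald p = 0.795 in the authors' deposited table) had an interval from -0.14 to 0.22, and total-count scaling raised it to 0.33 (adjusted p = 0.00124 by the Wald test). The ratio of Mbnl2 to Mbnl1 implied means went from 1.5 in GFP to 1.26 in dnMKL1, and such ratios within a group do not depend on the scaling. An antisense gene, Gm26679, overlaps Mbnl2 exons in GENCODE, and the use of strand in counting is not given in the sources used here.

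Celf1 and Celf2 encode CELF proteins, which favour fetal splicing patterns and also act on RNA decay. Celf1, on chromosome 2 (90940382 to 91019497), had implied means of 2680 normalized counts in GFP and 2524 in dnMKL1. With a log2 fold change of -0.09 (SE 0.05, adjusted Wald p = 0.222 in the authors' deposited table), it was the most precisely measured of the 10. Its interval ran from -0.19 to 0.02, which bounds a fall at 0.88 of the GFP level. Celf2, on the minus strand of the same chromosome (6539694 to 7509563), had implied means of 1242 and 1423. Its log2 fold change was 0.20 (SE 0.09, unadjusted p = 0.0223, adjusted Wald p = 0.0625 in the authors' deposited table), so it missed the threshold after adjustment over all genes. Under total-count scaling the values were 0.20 for Celf1 and 0.48 for Celf2, with adjusted p of 7.0e-04 and 1.6e-07 by the Wald test. The sign of Celf1 thus turned with the scaling. The ratio of Celf2 to Celf1 implied means was 0.46 in GFP and 0.56 in dnMKL1. Gm26565, on the opposite strand, overlaps Celf2 exons in GENCODE.

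Rbm20 and Rbm24 encode regulators enriched in striated muscle. RBM20 represses exons of titin and of Camk2d, and its mutation causes dilated cardiomyopathy. Rbm20, on chromosome 19 (53677306 to 53867080), had implied means of 4211 normalized counts in GFP and 4724 in dnMKL1. The log2 fold change of Rbm20 was 0.17 (SE 0.09, adjusted Wald p = 0.143 in the authors' deposited table), with a 95% interval from -0.01 to 0.34, and 0.45 under total-count scaling (adjusted p = 2.4e-06 by the Wald test). Rbm24, on chromosome 13 (46418434 to 46431095), promotes the inclusion of muscle exons and is needed for sarcomere assembly. Its implied means were 2344 and 2065, with a log2 fold change of -0.18 (SE 0.56, adjusted Wald p = 0.855 in the authors' deposited table) that turned to 0.11 under total-count scaling.

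The SE of Rbm24 stood apart. The median SE was 0.10 over the 1554 genes within 2-fold of its base mean, and 4 of these genes, Rbm24 included, had an SE as large as 0.56. With the recovered size factors, that SE corresponds to a coefficient of variation between libraries of a group of 61.0%, against 5.56% to 20.4% for the other 9 regulators (Celf1 lowest and Ptbp1 highest). The 95% interval of Rbm24 spans from 0.41 to 1.88 times the GFP level. A change of at least 2.51-fold would have been needed for Rbm24 to pass, while the other regulators that did not pass needed 1.09-fold (Celf1) to 1.39-fold (Ptbp1). Whether 1 library or a general spread gives the large SE of Rbm24 cannot be read from a table of means.

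**Figure D2:**
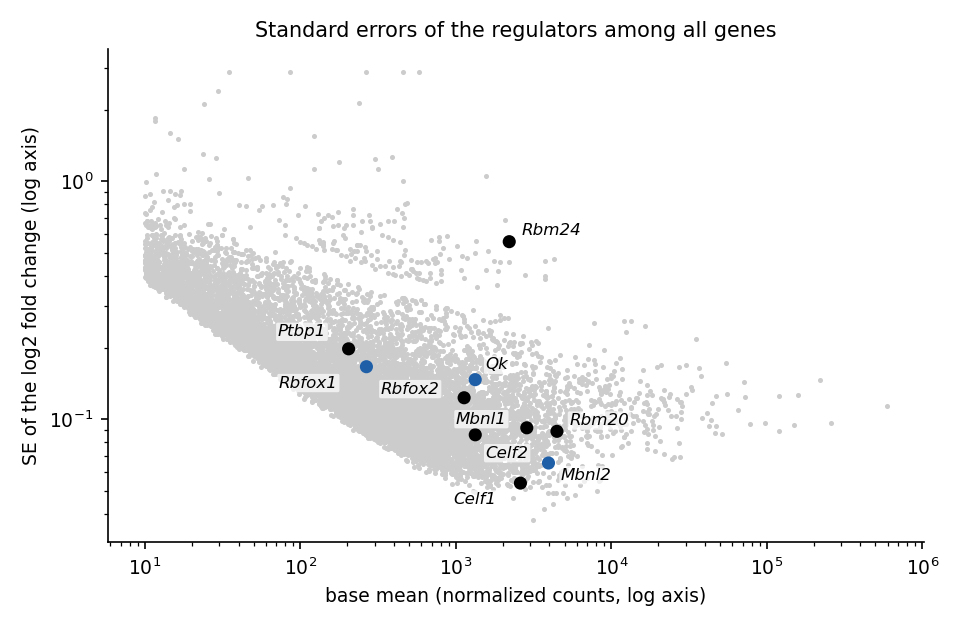
SE of the log2 fold change (y axis, log scale) against base mean in normalized counts (x axis, log scale) for 11914 genes with an adjusted p and a base mean of 10 or more (grey) and the 10 regulators (blue where lower at an adjusted p under 0.05, black otherwise). Rbm24 lies above the main band of genes at its level, with an SE of 0.56, and Celf1 lies near the lower edge with 0.05.

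Ptbp1 encodes polypyrimidine tract-binding protein, a repressor of muscle and neuronal exons that is low in differentiated muscle. It lies on chromosome 10 (79854427 to 79864771) and had the lowest base mean of the 10, 204 in the authors' deposited table. Its implied means were 181 normalized counts in GFP and 227 in dnMKL1. The log2 fold change was 0.33 (SE 0.20, adjusted Wald p = 0.204 in the authors' deposited table), with an interval from -0.06 to 0.71, and 0.62 under total-count scaling (adjusted p = 0.00543 by the Wald test). In GENCODE 3 genes on the opposite strand overlap Ptbp1 exons, among them E130317F20Rik, which had a base mean of 21.4 in the authors' deposited table.

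Levels of different genes were compared as implied means per kb of annotated exon. In the GFP group Rbm24 (671) and Rbm20 (620.2) stood highest, followed by Mbnl2 (352), Celf1 (317), Mbnl1 (151), Rbfox2 (145), Qk (115), Rbfox1 (74.5), Celf2 (48.0) and Ptbp1 (38.2). In the dnMKL1 group Rbm20 (696) was first and Rbm24 (592) second, and Rbfox1 (46.4) came last, just below Ptbp1 (48.0). Because the spread of Rbm24 was 61.0%, its order against Rbm20 is within error in both groups. Neighbours such as Mbnl1 and Rbfox2 in GFP also lie closer than their spreads of 9.89% and 13.1%. Exon lengths came from GENCODE M21 and need not be those the authors used. Taking the longest transcript in place of the union of exons, an alternative chosen after seeing the data, kept Mbnl2 in the third place and Ptbp1 in the last place of the GFP group. It swapped neighbours elsewhere: Rbm20 then stood ahead of Rbm24, Mbnl1 ahead of Celf1, Qk ahead of Rbfox2 and Celf2 ahead of Rbfox1. Rbm24 and Mbnl2 were then level, both at 759 in GFP, so the third place is within error. In the dnMKL1 group Celf2 moved from place 8 to 6, Rbfox2 from 6 to 7 and Qk from 7 to 8, and Mbnl1 again passed Celf1. The values per kb themselves rose with this shorter length, 3.31 times for Mbnl1 (to 498 in GFP), 2.92 times for Celf2 (to 140.3), 2.16 times for Mbnl2 (to 759) and 1.67 times for Qk (to 192), and less for the others, so the levels per kb are rough.

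**Figure D3:**
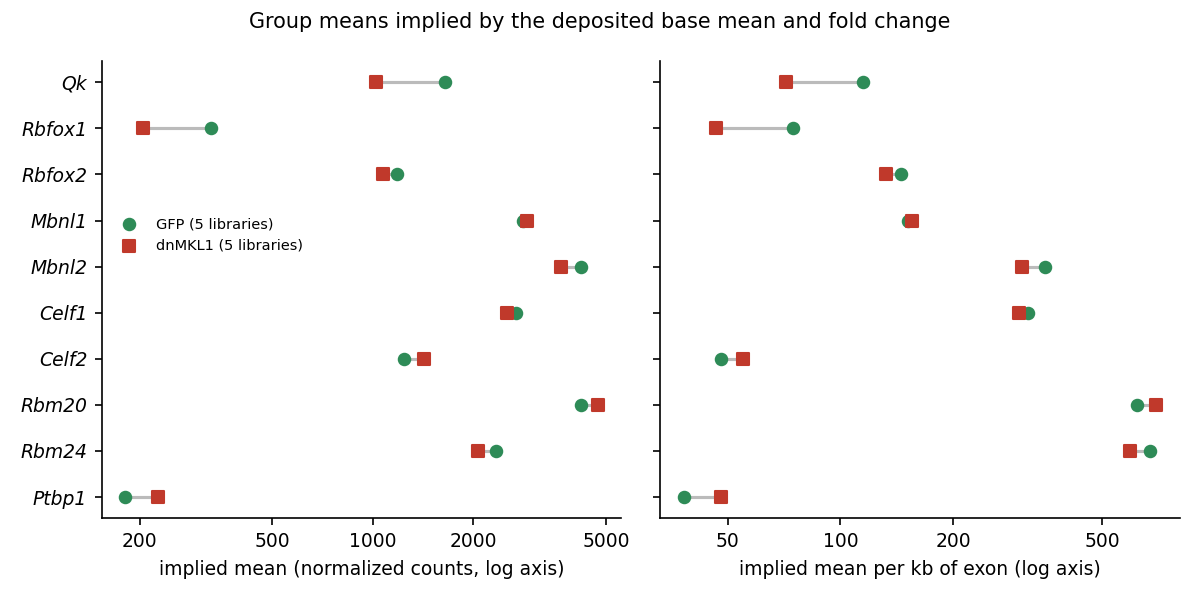
Implied group means of the 10 regulators in normalized counts (left, log axis) and per kb of GENCODE exon (right, log axis), with circles for GFP and squares for dnMKL1, each from 5 libraries. Qk and Rbfox1 show the widest gaps between groups, from 1644 to 1020 and from 328 to 204 normalized counts, while the circles and squares of Mbnl1 and Celf1 nearly coincide.

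Other members of the same families were examined next. Of 9 such genes, 5 had an adjusted p, with 2 higher and 1 lower by the authors' deposited table and a median log2 fold change of 0.31. That is 60.0% of only 5 genes, beside 34.1% of all genes. Rbm38, the paralogue of Rbm24 and a regulator of muscle differentiation, had implied means of 985 and 537 normalized counts and fell with a log2 fold change of -0.88 (SE 0.12, adjusted Wald p = 1.2e-12 in the authors' deposited table). Ptbp2 and Ptbp3, paralogues of Ptbp1, rose: the authors' deposited table gave 0.31 (SE 0.10) for Ptbp2 and 0.57 (SE 0.19) for Ptbp3, listed under its older symbol Rod1, with adjusted Wald p of 0.00616 and 0.0104. Ptbp2 had implied means of 322 and 399.5, and its ratio to Ptbp1 was 1.78 in GFP and 1.76 in dnMKL1. Mbnl3 was low, with a base mean of 7.26 and a log2 fold change of -1.03 (SE 0.65, adjusted Wald p = 0.233 in the authors' deposited table). The 4 genes with no adjusted p (Celf3, Celf4, Celf6 and Rbfox3) had base means from 0.0821 to 1.28. The counts stayed at 2 higher and 1 lower under total-count scaling, where 47.0% of all genes passed.

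Among 20 other RNA-binding splicing regulators and cofactors with an adjusted p, 1 was higher and 3 were lower, with a median of 0.06. Their share of 20.0% is set beside 34.1% of all genes. Rbpms and Rbpms2 encode RNA-binding proteins that direct muscle splicing programmes. Rbpms fell from an implied mean of 3599 normalized counts to 1899, with a log2 fold change of -0.92 (SE 0.09, adjusted Wald p = 3.0e-21 in the authors' deposited table). Rbpms2 fell from 1015 to 676, with -0.59 (SE 0.13, adjusted Wald p = 6.2e-05 in the authors' deposited table). Both still passed under total-count scaling, Rbpms at -0.63 and Rbpms2 at -0.30 (adjusted p = 0.0482 by the Wald test), although Rbpms2 no longer passed when Mkl1 was left out of the totals. Raver2, which encodes a partner of PTBP1, rose by 0.67 (SE 0.17, adjusted Wald p = 4.0e-04 in the authors' deposited table), and Matr3, another partner, had -0.20 (SE 0.08, adjusted Wald p = 0.0361 in the authors' deposited table). Total-count scaling gave 12 higher and 2 lower in this list, a share of 70.0% beside 47.0% of all genes, with Matr3 at 0.09.

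The SR proteins, which mostly promote exon inclusion, showed 1 higher and 0 lower of 15 with an adjusted p, with 2 at an unadjusted p under 0.05 and a median of 0.02. Srsf9 was the gene that passed, at 0.39 (SE 0.13, adjusted Wald p = 0.00850 in the authors' deposited table), and Tra2a missed the threshold at 0.36 (SE 0.15, adjusted Wald p = 0.0504 in the authors' deposited table). Srsf11 and Son had 0.13 (SE 0.08) and 0.17 (SE 0.12). The hnRNP proteins, many of which repress exons, showed 0 higher and 2 lower of 23, with 4 at an unadjusted p under 0.05 and a median of 0.01. Hnrnpa2b1 fell from 9528 to 7021 normalized counts, at -0.44 (SE 0.06, adjusted Wald p = 6.8e-14 in the authors' deposited table), and Hnrnpf at -0.41 (SE 0.11, adjusted Wald p = 7.7e-04 in the authors' deposited table). Hnrnpul1 and Syncrip had -0.20 (SE 0.09) and 0.20 (SE 0.10), neither past the threshold. These shares, 6.67% and 8.70%, lay below the 34.1% of all genes. Under total-count scaling 11 SR genes and 13 hnRNP genes were higher and 0 and 1 lower. The shares were then 73.3% and 60.9%, above the 47.0% of all genes, so their place relative to the background turned with the scaling.

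Kinases that phosphorylate SR proteins, with the importer transportin-SR, had 4 higher and 1 lower of 10 and a median of 0.09. That is 5 of 10 genes, beside 34.1% of all genes and 44.3% of genes in the range of base means of the 10 regulators. Srpk3, a kinase enriched in striated muscle and known as a MEF2 target, rose from an implied mean of 1183 normalized counts to 1970, at 0.74 (SE 0.09, adjusted Wald p = 5.9e-14 in the authors' deposited table). Srpk2 rose by 0.24 (SE 0.07, adjusted Wald p = 0.00261) and Clk4 by 0.35 (SE 0.11, adjusted Wald p = 0.00437 in the authors' deposited table). Tnpo3, which encodes the nuclear importer of SR-domain proteins, was lower at -0.20 (SE 0.06, adjusted Wald p = 0.00656 in the authors' deposited table), and turned to 0.09 under total-count scaling. Under that scaling 7 of the list were higher and 0 lower, a share of 70.0% beside 47.0% of all genes.

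Of 43 core spliceosome genes, 5 were higher and 4 lower, a share of 20.9% beside 34.1% of all genes, with a median of 0.06. The RNA helicase genes Dhx16 and Dhx38 were higher, at 0.39 (SE 0.08) and 0.50 (SE 0.13), with adjusted Wald p of 3.9e-05 and 0.00123 in the authors' deposited table. Prpf19 and Bcas2, which encode parts of the same spliceosomal complex, were lower at -0.33 (SE 0.09) and -0.27 (SE 0.07), with adjusted Wald p of 0.00114 and 9.0e-04 in the same comparison of the authors' deposited table. Total-count scaling gave 27 higher and 0 lower, a share of 62.8% beside 47.0%, with Bcas2 at 0.02 and Prpf19 at -0.05.

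**Figure D4:**
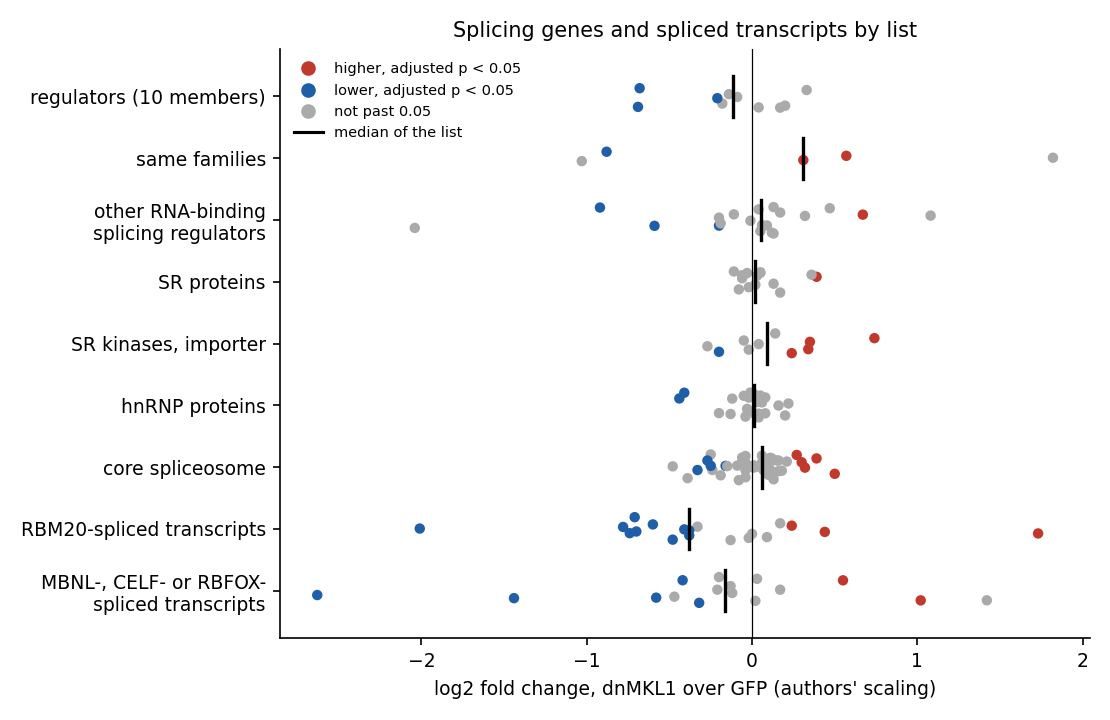
Log2 fold change (x axis, authors' scaling) of each gene with an adjusted p in the 10 regulators and 8 further lists (rows, with points spread vertically for visibility), with black bars for the medians. The SR and hnRNP lists cluster near 0, with medians of 0.02 and 0.01, whereas the transcripts spliced by RBM20 have a median of -0.38.

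Transcripts known to be spliced by the regulators were read at the level of the whole gene. Of 19 transcripts that RBM20 acts on, 3 were higher and 10 lower, with a median log2 fold change of -0.38. Their share of 68.4% is set beside 55.8% of the 2126 genes whose base mean was at least 1000 (42.1% of them lower), which had a median of -0.15, because 17 of the 19 are that abundant. Sh3kbp1, an adaptor of receptor trafficking, fell from an implied mean of 2790 normalized counts to 691, at -2.01 (SE 0.22, adjusted Wald p = 3.3e-18 in the authors' deposited table). Camk2d, the main calcium/calmodulin-dependent kinase of the heart, fell at -0.74 (SE 0.10, adjusted Wald p = 4.2e-12) and Nexn, a Z-disc protein gene, at -0.70 (SE 0.09, adjusted Wald p = 1.4e-14 in the authors' deposited table). Rtn4, a reticulon of the endoplasmic reticulum, rose from 888 to 2955, at 1.73 (SE 0.18, adjusted Wald p = 3.9e-20 in the authors' deposited table). Ttn, named here after its value was seen because it is the best-known RBM20 target, had -0.41 (SE 0.17, adjusted Wald p = 0.0466 in the authors' deposited table). Total-count scaling gave 5 higher and 6 lower, a share of 57.9% beside 47.0% of all genes, with Ttn at -0.12 (adjusted p = 0.599 by the Wald test). The share of equally abundant genes under that scaling was not computed, so these 2 shares are from unlike sets.

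Of 16 transcripts spliced by MBNL, CELF or RBFOX proteins, 2 were higher and 5 lower, with a median of -0.17. Their share of 43.8% is set beside 34.1% of all genes. Tnnt2, cardiac troponin T, carries a fetal exon on which MBNL and CELF proteins oppose each other, and it fell at -0.58 (SE 0.10, adjusted Wald p = 2.8e-08 in the authors' deposited table). Clcn1, the skeletal chloride channel, was low in these cells and fell from an implied mean of 36.5 normalized counts to 5.91, at -2.63 (SE 0.40, adjusted Wald p = 7.7e-10 in the authors' deposited table). Cacna1s, a skeletal calcium channel subunit, fell from 60.4 to 22.3, at -1.44 (SE 0.27, adjusted Wald p = 1.1e-06 in the authors' deposited table). Actn1, non-muscle alpha-actinin, rose at 1.02 (SE 0.13, adjusted Wald p = 5.0e-13 in the authors' deposited table). Under total-count scaling 3 were higher and 3 lower, a share of 37.5% beside 47.0% of all genes.

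Markers of other cell types are given beside these values because several regulators are also expressed outside cardiomyocytes. Of 12 fibroblast markers 5 were higher and 0 lower (41.7%, beside 34.1% of all genes), and their summed implied means went from 5228 to 8877 normalized counts. Gsn (876 to 1951) and Fbln1 (748 to 1944) carried most of that rise, and without them, a choice made after seeing the data, the sum went from 3604 to 4983. The collagen genes Col1a1 (log2 fold change 0.67, SE 0.17), Col1a2 (0.64, SE 0.14) and Col3a1 (0.44, SE 0.15) also rose in the authors' deposited table. The other 7 did not pass, among them Pdgfra at 0.06 (SE 0.25), Mfap5 at 0.02 (SE 0.24) and Dcn at 0.27 (SE 0.16). Under total-count scaling 8 fibroblast markers were higher and 0 lower (66.7%, beside 47.0% of all genes). Dcn then passed, at 0.56 (adjusted p = 0.00229 by the Wald test).

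The 9 mural markers had 3 higher and 1 lower (44.4%, beside 34.1% of all genes), with sums of 18254 and 15947. The lower sum came from Acta2 (10454 to 4999), which cardiomyocytes also express. Without Acta2 the sum went from 7800 to 10949, but most of it was Abcc9 alone (6332 to 7773). Without Acta2 and Abcc9 it went from 1468 to 3176, and both omissions were chosen after seeing the data. Most of the latter difference lay in Cspg4, which rose from 501 to 2019 normalized counts, at 2.01 (SE 0.18, adjusted Wald p = 2.4e-26 in the authors' deposited table). Myh11 and Tagln were the other mural markers that passed as higher, at 0.73 (SE 0.20) and 0.72 (SE 0.18). Rgs5, Pdgfrb and Kcnj8 did not pass and had 0.01 (SE 0.31), 0.18 (SE 0.24) and 0.03 (SE 0.30). Abcc9 and Notch3 did not pass either, at 0.30 (SE 0.15) and 0.45 (SE 0.20). Under total-count scaling 5 mural markers were higher, Abcc9 and Notch3 among them, and 1 lower (66.7%, beside 47.0% of all genes).

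The 12 endothelial markers had 0 past the threshold by the Wald test in the authors' deposited table, beside 34.1% of all genes. They had 0 at an unadjusted p under 0.05, and sums of 4399 and 4458. The most abundant of them, Kdr, Fabp4 and Pecam1, had 0.10 (SE 0.29), -0.11 (SE 0.52) and -0.07 (SE 0.30). The SEs of the 12 were large, from 0.25 (Flt1) to 0.52 (Fabp4). The median SE was 0.12 over the 4122 genes within 2-fold of the base mean of Rbfox1. Genes that passed had a Wald statistic of at least 2.39 in size, so moderate changes of these markers could not have passed. The 10 macrophage markers with an adjusted p had 1 higher (Cd68, at 1.03) and 0 lower, or 10.0% beside 34.1% of all genes. Their sums were 183 and 162 over 11 genes. Lyz2, Csf1r and C1qb, the most abundant of these, had -0.55 (SE 0.26), -0.01 (SE 0.34) and -0.21 (SE 0.51), none past the threshold. No marker of these lists was listed at 0. Total-count scaling left the endothelial and macrophage counts unchanged. The 8 cardiomyocyte markers had 0 higher and 5 lower, and their sum went from 1533414 to 872396. Myh6 and Actc1 fell, at -0.87 (SE 0.11) and -1.55 (SE 0.15) in the authors' deposited table, while Mb had -0.26 (SE 0.13) and did not pass. The part of these shifts in the values of the splicing regulators was not tested.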

How the data were processed

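The authors aligned reads with STAR 2.5.3a and counted them with featureCounts (Subread 1.5.2) on mm10, per the submitters' processing notes; annotation and strand setting are not given in the sources used here. The authors' deposited table has DESeq2's column names, per the file headers: a base mean (a signal in normalized counts), a log2 fold change and SE, a Wald statistic (a score), and deposited p-values. The statistic equalled fold change over SE within 1.1e-05, and the adjusted p-values were recomputed within 1.4e-07. Of 23337 genes, 14056 had an adjusted p and 5966 were listed at 0.

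Implied means assume groups of equal size. Genes detected by a single read gave the size factors, and totals and the coefficients of variation follow from them, assuming a negative binomial fit whose dispersions the authors' tool may have moderated. Functions were tested on simulated data. Intervals are 95% normal intervals. Nothing in the labels says more of the replicates than that they are biological, 5 per group. No count test was possible on this table, so the authors' deposited Wald test was used. Older symbols were matched through RefSeq (GRCm38.p6). The members and lists were chosen with earlier results of these data known. Named genes are all members, Mkl1, the 4 genes with the smallest p in each splicing list and the 3 most abundant in each marker list; Ttn and markers beyond these were added. Python 3.11.15, pandas 2.3.3, numpy 2.4.6 and scipy 1.17.1 were used.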

Additional observations from a re-analysis of the deposited data

How the results depend on the processing

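No paired analysis was possible because the table holds no values per library; for that reason fits that each leave out 1 library, the replicate block and other count tools were not run, and whether 1 library decides a value is unknown. The count of 3 regulators past the threshold became 2 with an absolute log2 fold change of at least 0.5, 3 or 4 at other thresholds and filters, and 7 (5 higher, 2 lower) under total-count scaling, with or without Mkl1, the latter chosen after seeing the data. Of the 150 other splicing genes and spliced transcripts with an adjusted p, 44 passed (18 higher, 26 lower), beside 34.1% of all genes. The 44 became 93 (80 and 13) under total-count scaling, where 47.0% of all genes passed. They became 99 (87 and 12) with Mkl1 left out of the totals and 18 (6 and 12) at the minimum change of 0.5, where fewer genes can pass. All called genes went from 4792 to 2735 at that minimum and to 6612 under total-count scaling, with the share higher going from 48.8% to 86.0%.

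Total-count scaling, by its shift of 0.29 (0.30 without Mkl1), reversed 13 of 58 named genes. Of the regulators these were Rbm24 (0.11, and 0.12 without Mkl1), Rbfox2 (0.15 and 0.16), Mbnl2 (0.08 and 0.09) and Celf1 (0.20 and 0.21). The others were Matr3 (0.09 and 0.10), Tnpo3 (0.09 and 0.10), Hnrnpul1 (0.09 and 0.10), Bcas2 (0.02 and 0.03), Mb (0.03 and 0.04), Fabp4 (0.18 and 0.19), Pecam1 (0.22 and 0.23), Csf1r (0.28 and 0.29) and C1qb (0.08 and 0.09). Hnrnpf and Prpf19 no longer passed with or without Mkl1 in the totals, and Rbpms2 without it. Celf2 passed at an adjusted p under 0.1, and after a filter on base means under 100 (adjusted p = 0.0494 by the Wald test). Mbnl2 fell short of the minimum change of 0.5. All 10 regulators kept their calls at 0.01, with adjustment over every p-value, after a filter on base means under 10 and after median-centring.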
